A study of Mus musculus with 6 samples.

Results

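Transmembrane mucins, trefoil factors and lipocalin 2 were followed through the CD133+ and CD133- cells of a mouse pancreatic cancer line. The set held 8 genes, Muc1, Muc4, Muc13, Muc20, Tff1, Tff2, Tff3 and Lcn2, and every array probe that the platform annotation gives to any of these symbols was taken. This found 12 of the 45281 probes, for 7 of the 8 genes. No probe is listed under Tff1, which was not analysed here. The data came from KPC001, a line derived from a KPC mouse, in which Cre recombinase acts in the pancreas and tumours form there. Total RNA from 3 samples labelled CD133+ and 3 labelled CD133- was hybridised to Illumina whole-genome bead arrays in 1 colour, and both groups were untreated cells grown in high-glucose medium with serum. All samples are of 1 line, and the labels do not say how the cells were separated or whether the replicates were separate cultures, so the spread behind the p-values may be wholly technical.

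Transmembrane mucins are large glycoproteins whose heavily O-glycosylated outer part forms a coat on the apical face of epithelia, while a short tail reaches into the cytoplasm. Trefoil factors are small secreted peptides that are packed and released together with gel-forming mucins and promote repair of damaged mucosa. Lipocalin 2 is a secreted protein that binds iron-carrying bacterial siderophores and is stored in neutrophil granules, and inflamed epithelia and pancreatic tumours also make it. In human pancreatic cancer MUC1 and MUC4 are known as surface proteins that are raised or newly made by the tumour cells.

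Between 17123 and 18057 probes were detected on an array, where a probe counted as detected at a detection p (the share of negative control probes at least as bright) under 0.05. Detected on at least 3 of the 6 arrays, and therefore tested, were 17219 probes. Prom1, which encodes CD133, stayed below detection on all of its 3 probes and all 6 arrays, which leaves the labels without a check from this transcript. Of the epithelial and ductal markers, 8 of the 9 genes with a probe were tested, Krt7, Krt8, Krt18 and Krt19 among them, and the epithelial adhesion gene Epcam was not detected on any array.

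Muc1 and Lcn2 were the members detected on all 6 arrays, Tff2 lay close to background, and Muc4, Muc20 and Tff3 were not detected on any array. Lcn2 was 1.42-fold and Muc1, on 1 of its 4 probes, 1.24-fold higher in CD133+ than in CD133- cells, and neither difference passed the test. The 4 probes of Muc1 and the single probe of Lcn2 were above background everywhere, and the Tff2 probe was detected on 3 of 3 CD133+ and 2 of 3 CD133- arrays. The 2 probes of Muc13 were detected on 2 arrays and 1 array. Of the 6 probes that could be tested, 0 passed an adjusted p under 0.05 in limma (2 reached an unadjusted p under 0.05), where 1.53% of all tested probes passed and 16.6% reached the unadjusted level. The groups did not overlap for 2 of the 6, against 23.1% of all tested probes. In such bulk RNA a smaller share of cells with a transcript and less of it per cell cannot be told apart.

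**Figure D1:**
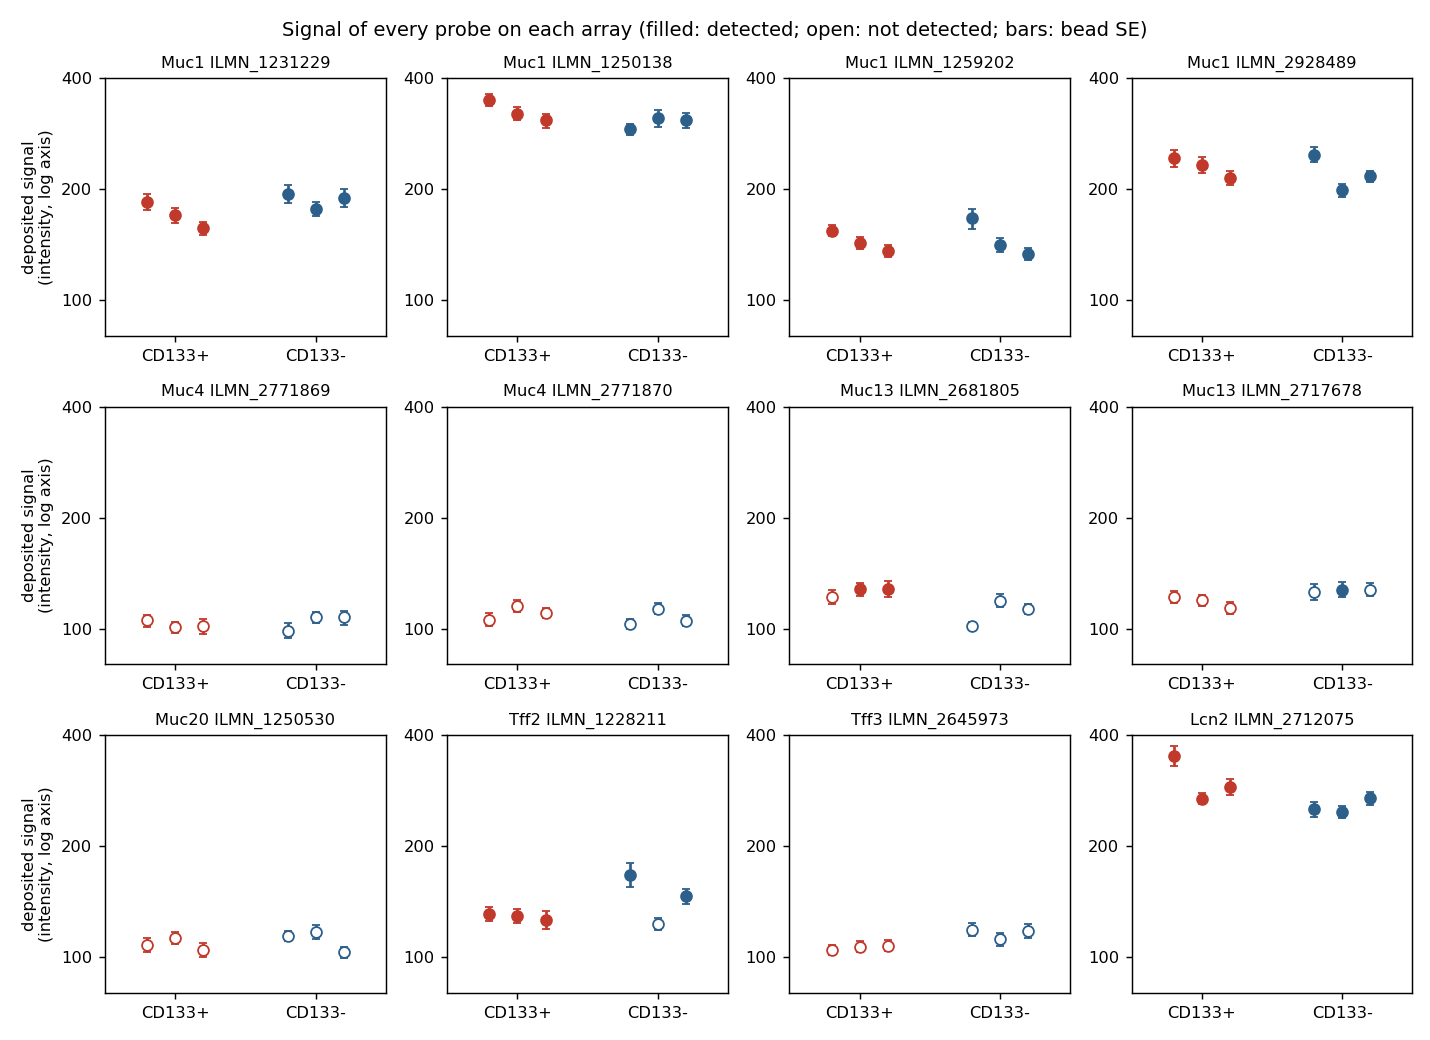
Deposited mean bead intensity (vertical log axis) of the 12 probes on each array, CD133+ samples on the left and CD133- samples on the right of each panel, with bars for the standard error over beads. Filled points were detected at a detection p under 0.05: all 6 for each Muc1 probe and for Lcn2, and none for Muc4, Muc20 and Tff3.

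Because Muc1 and Lcn2 were the members detected throughout, the 250 bases before their RefSeq transcription start (GRCm38.p6) are shown, with motif matches in capitals. They lie at chr2:32387740-32387989 on the minus strand for Lcn2 and at chr3:89228806-89229055 on the plus strand for Muc1.
Lcn2: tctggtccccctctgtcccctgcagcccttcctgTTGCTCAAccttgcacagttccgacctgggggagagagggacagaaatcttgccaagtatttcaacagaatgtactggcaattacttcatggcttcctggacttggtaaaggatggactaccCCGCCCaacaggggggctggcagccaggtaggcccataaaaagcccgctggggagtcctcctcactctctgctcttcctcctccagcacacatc
Muc1: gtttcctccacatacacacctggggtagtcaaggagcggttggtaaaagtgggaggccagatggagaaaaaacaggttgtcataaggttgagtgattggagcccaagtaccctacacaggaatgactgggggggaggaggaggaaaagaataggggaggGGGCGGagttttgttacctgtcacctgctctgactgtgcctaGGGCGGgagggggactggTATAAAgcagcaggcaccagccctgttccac

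The letters searched were TATAAA on the gene's strand, and on both strands GGGCGG (the GC box), TTGCNNAA (a C/EBP motif), TTCNNNGAA (a STAT motif) and the NF-kappaB consensus. The same windows of all 32851 RefSeq promoters held them in 7.59%, 32.7%, 9.56%, 7.02% and 7.25% of cases. The Muc1 window held TATAAA and 2 GC boxes. The Lcn2 window held 1 GC box, written here as its reverse complement, and 1 C/EBP motif, and neither window matched the STAT or NF-kappaB letters. These matches describe the letters and say nothing of a factor's presence there.

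Among the transmembrane mucins, Muc1, whose product lines the apical surface of ducts and signals through its cytoplasmic tail, gave values that differed between its probes. On ILMN_1250138 the deposited signals were 349.0, 321.2 and 307.6 in CD133+ cells and 291.2, 311.8 and 307.9 in CD133- cells. These signals overlapped between the groups before normalisation, with CD133+ replicate 3 just below the upper pair of CD133- arrays. After background correction and quantile normalisation they did not, with log2 intensities of 7.95, 7.93 and 7.88 in CD133+ cells against 7.41, 7.68 and 7.75 in CD133- cells.

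This probe had group means of 7.92 ± 0.03 in CD133+ and 7.61 ± 0.18 in CD133- cells (SD, n = 3 each), a log2 difference of 0.31 ± 0.11 (SE, 95% interval 0.06 to 0.56, 1.24-fold). It did not pass in limma (adjusted p = 0.21, unadjusted p = 0.022). ILMN_2928489, also from the Muc1 transcript, had log2 intensities of 7.16, 7.17 and 7.04 in CD133+ cells and 7.06, 6.61 and 6.92 in CD133- cells. Its difference of 0.26 ± 0.13 did not pass (adjusted p = 0.352 by limma), and CD133- replicate 1 reached the range of the CD133+ arrays.

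The other Muc1 probes gave no difference near the threshold. ILMN_1231229 had log2 intensities of 6.42, 6.24 and 6.05 in CD133+ cells and 6.43, 6.27 and 6.54 in CD133- cells, a difference of -0.17 ± 0.12 (adjusted p = 0.535 by limma). ILMN_1259202, at 1.25 to 1.36 times the background of CD133+ arrays and 1.15 to 1.45 times that of CD133- arrays, had 5.79, 5.54 and 5.47 in CD133+ cells and 5.95, 5.42 and 5.06 in CD133- cells. The groups overlapped on both probes, and the difference of ILMN_1259202 was 0.12 ± 0.22 (adjusted p = 0.825 by limma, 95% interval -0.38 to 0.63). Background here is the median signal of the probes not detected on the same array. The platform annotation gives all 4 probes the same RefSeq transcript, their sequences were not used here, and whether their differences are unequal was not tested.

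Muc4, the membrane mucin known as a partner of the receptor ErbB2, was at background on both of its probes. ILMN_2771869 had deposited signals of 105.3, 100.8 and 101.5 in CD133+ cells and 98.86, 107.5 and 107.3 in CD133- cells, and ILMN_2771870 had 105.9, 115.4 and 110.4 in CD133+ cells and 102.9, 113.4 and 105.2 in CD133- cells. These are 0.886 to 1.01 times the background in CD133+ and 0.861 to 1.0 times in CD133- samples. Muc20, a small membrane mucin that in human cells binds the receptor MET, had 108.1, 113.0 and 104.6 in CD133+ cells and 114.2, 117.2 and 103.2 in CD133- cells on ILMN_1250530. It was not detected on any array, and no fold is given for Muc4 or Muc20. In RefSeq's GRCm38.p6 annotation the 2 genes are neighbours on chromosome 16 and overlap each other.

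Muc13, a membrane mucin of the gut lining, lay at the edge of detection, and its probes pointed opposite ways. ILMN_2681805 had deposited signals of 121.8, 128.0 and 128.4 in CD133+ cells (replicates 2 and 3 detected) and 101.9, 119.2 and 113.1 in CD133- cells (none detected). ILMN_2717678 had 122.1, 119.7 and 113.8 in CD133+ cells (none detected) and 126.0, 127.7 and 127.7 in CD133- cells (replicate 2 detected). The groups did not overlap on either probe, with CD133+ the higher on ILMN_2681805 and the lower on ILMN_2717678, for which no fold is given. The share of probes below the detection filter whose groups did not overlap was not counted, so this has no background to be read against.

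Neither Muc13 probe met the detection filter, so they were compared only in a fit of all 45281 probes, in which 0.25% passed. Neither passed there (adjusted p = 0.257 for ILMN_2681805 and 0.497 for ILMN_2717678 by limma). Against the lowest signal among detected probes, the CD133+ mean of ILMN_2681805 was at least 1.01-fold higher, which leaves its size unresolved at this signal.

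Of the trefoil factors, Tff2, a peptide of gastric neck cells and pyloric glands that also appears in metaplastic ducts, was the one with signal above background. ILMN_1228211 had deposited signals of 131.3, 129.6 and 126.5 in CD133+ cells and 167.4, 123.2 and 146.2 in CD133- cells. The CD133+ arrays lay within a narrow range between CD133- replicate 2, which was not detected, and CD133- replicates 1 and 3, which were brighter. The log2 means were 5.05 ± 0.04 in CD133+ and 5.42 ± 0.62 in CD133- cells (SD, n = 3 each), and the difference of -0.37 ± 0.27 did not pass (adjusted p = 0.556 by limma, 95% interval -1.0 to 0.27). It was -0.09 without CD133- replicate 1 and -0.70 without CD133- replicate 2, and it passed in neither fit.

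Tff3, the trefoil factor of intestinal goblet cells, had deposited signals of 104.7, 106.9 and 107.5 in CD133+ cells and 118.9, 111.8 and 118.1 in CD133- cells on ILMN_2645973. All CD133+ signals were below all CD133- signals before normalisation, but they overlapped after it, the lowest detection p was 0.3 and no fold is given. Tff3, Tff2 and Tff1 are consecutive protein-coding genes on chromosome 17 in the same annotation.

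Lcn2 had the smallest p among the members tested. On ILMN_2712075, with 24 to 43 beads per array, the deposited signals and their bead standard errors were 352.2 ± 21.1, 269.3 ± 9.06 and 289.6 ± 14.6 in CD133+ cells, and 252.1 ± 11.9, 247.8 ± 9.79 and 269.8 ± 11.3 in CD133- cells. CD133+ replicate 1 was the brightest array, and CD133+ replicate 2 and CD133- replicate 3 had nearly the same deposited signal. Relative to background the signal was 2.37 to 3.10 times in CD133+ and 2.19 to 2.32 times in CD133- samples.

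After normalisation Lcn2 had log2 intensities of 7.97, 7.53 and 7.74 in CD133+ cells and 7.09, 7.17 and 7.45 in CD133- cells, so that the groups no longer overlapped. The means were 7.75 ± 0.22 in CD133+ and 7.24 ± 0.19 in CD133- cells (SD, n = 3 each), a difference of 0.51 ± 0.14 (SE, 95% interval 0.18 to 0.84, 1.42-fold). It did not pass over all tested probes (adjusted p = 0.137 by limma, unadjusted p = 0.00791). The side of the threshold depended on the setting: Lcn2 passed in 4 of 14 others. These settings reuse the same arrays, and they include the fits with 1 array left out, in which Lcn2 did not pass. With the authors' processed intensities the difference was 0.34 (adjusted p = 0.00326 by limma) and 6.72% of all tested probes passed, and without background correction it was 0.33 (adjusted p = 0.00543) and 6.45% passed. With a variance trend and robust estimation it was 0.51 (adjusted p = 0.00653) where 6.37% passed, and with a normal-exponential correction that used no negative controls 0.40 (adjusted p = 0.0267) where 4.26% passed. The difference was above 0 in all 14 settings, between 0.33 and 0.62.

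**Figure D2:**
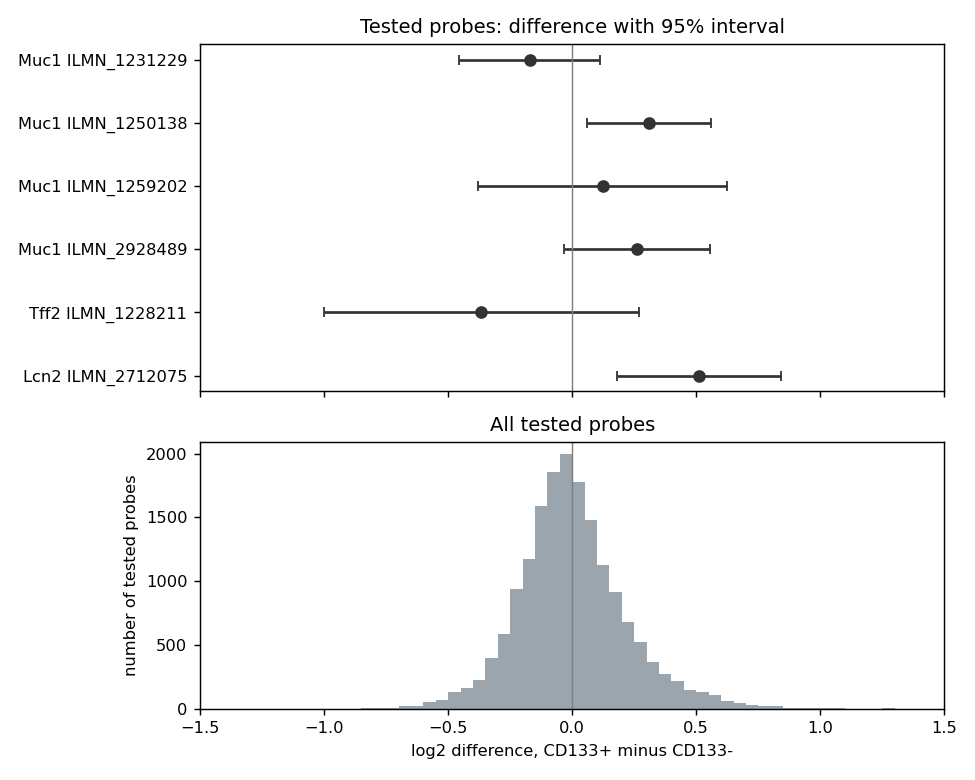
Upper panel, log2 difference (CD133+ minus CD133-, horizontal axis) of the 6 tested probes with 95% intervals. The interval excludes 0 for Lcn2 (0.18 to 0.84) and for Muc1 ILMN_1250138 (0.06 to 0.56), neither of which passed after adjustment. Lower panel, number of all 17219 tested probes by the same difference, on an axis that ends short of the few largest differences.

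**Figure D3:**
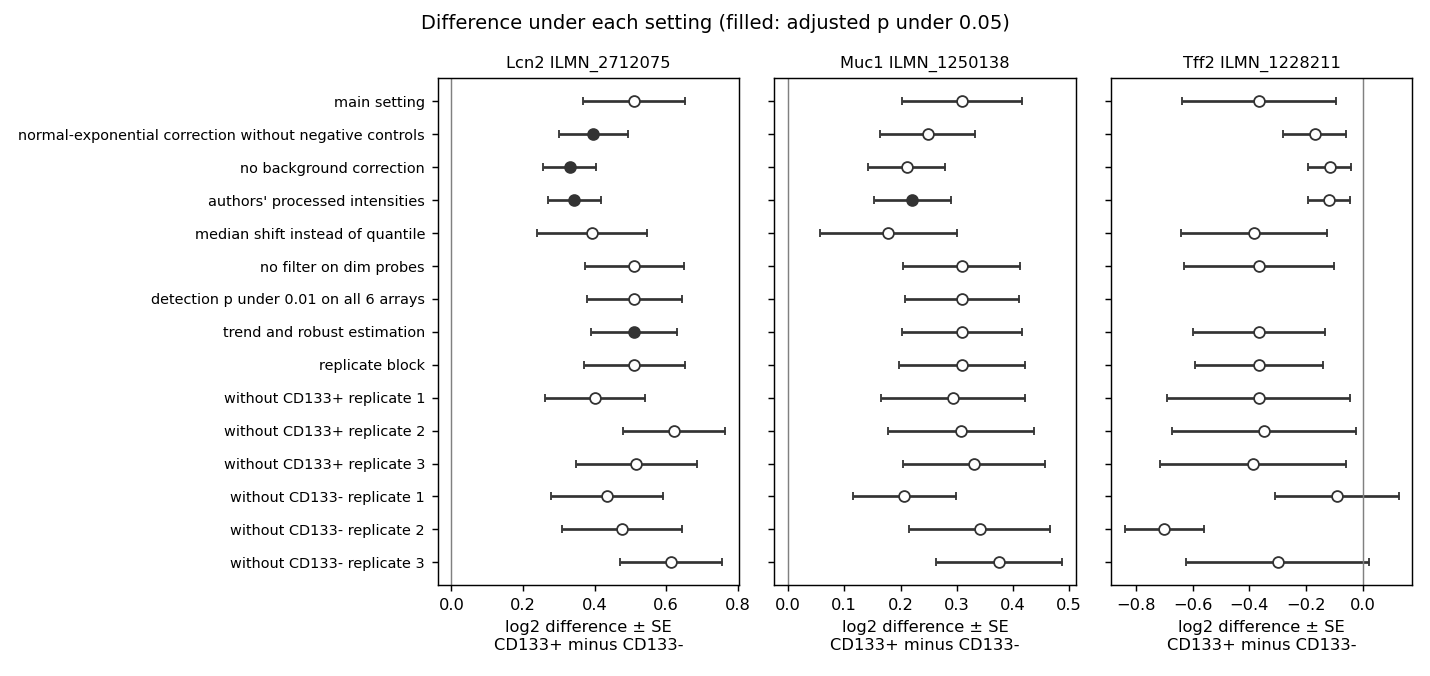
Log2 difference ± SE (CD133+ minus CD133-) of Lcn2, Muc1 ILMN_1250138 and Tff2 in the main setting and in each other setting in which the probe was tested, filled where the adjusted p was under 0.05. Lcn2 is filled in 4 settings, Muc1 in 1 and Tff2 in none, and the horizontal scales of the panels differ.

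Lcn2 is abundant in neutrophils, and their markers were mostly not detected. Of 14 probes for 9 granule and neutrophil markers, 10 were not detected on any array, including those of Ngp, Elane, Prtn3, Cd177, S100a8 and S100a9. The 1 tested probe, of lactoferrin (Ltf), was detected on all 6 arrays and had -0.11 ± 0.15. A second Ltf probe, a probe of Mpo and that of Camp were each detected on 1 array. Which cells the Lcn2 signal came from was not tested. The summed deposited signal of the 14 probes was 1539 to 1677 in CD133+ and 1632 to 1691 in CD133- samples. Of 12 leukocyte probes 9 were not detected on any array, with sums of 1324 to 1371 in CD133+ and 1363 to 1413 in CD133- samples, and the 1 tested, of Csf1r, had -0.25 ± 0.11.

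Genes that act around Lcn2 showed no change that passed. Where a listed gene has several tested probes, the one of smallest p is given. Among known inducers of Lcn2, 0 of 17 tested probes (11 genes) passed and 0 reached an unadjusted p under 0.05 in limma. Their median log2 difference was -0.07, beside -0.02 over all tested probes. The receptor subunit gene Il17rc had -0.24 ± 0.11 and the adaptor gene Myd88 -0.22 ± 0.12, while Nfkbiz, the cofactor that NF-kappaB needs to switch on Lcn2, had -0.03 ± 0.08. Epithelial acute-phase and antimicrobial genes gave 0 of 7 (1 at the unadjusted level, median 0.01), with -0.22 ± 0.09 for the chemokine gene Ccl20 and 0.18 ± 0.13 for the protease inhibitor gene Slpi. Other lipocalin family genes gave 0 of 4 (1 at the unadjusted level, median 0.16), with 0.39 ± 0.12 for C8g and 0.19 ± 0.16 for Crabp2. Iron and siderophore handling gave 0 of 10 (1 at the unadjusted level, median 0.02), with -0.29 ± 0.12 for the iron importer gene Slc11a2 and 0.15 ± 0.10 for the exporter gene Slc40a1.

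The machinery around the mucins was detected on many probes. Of 14 probes for 8 other mucin genes 11 were not detected on any array, including all probes of the gel-forming Muc2, Muc5ac and Muc6, and the 2 tested, of the sialomucin genes Cd164 and Podxl, had -0.16 ± 0.08 and 0.15 ± 0.16. Of 44 probes for the enzymes of mucin-type O-glycans, 28 (14 genes) were tested, 0 passed and 6 reached an unadjusted p under 0.05 in limma, 3 higher and 3 lower in CD133+ cells, against 9.08% and 7.53% of all tested probes. Of the 3 higher, the probe of the sialyltransferase gene St3gal1 was detected on 3 CD133+ and 0 CD133- arrays and so met the detection filter through CD133+ alone, which set its direction. Galnt1, which adds the first sugar, had 0.47 ± 0.11 on its probe of smallest p and 0.32, 0.22 and 0.04 on its others. Another sialyltransferase gene, St6galnac2, had -0.34 ± 0.09 and 0.19 ± 0.19 on its probes.

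Mucin folding factors and secretory transcription factors gave 0 of 16 tested probes (0 at the unadjusted level, median 0.0016). The mucin disulphide isomerase gene Agr2 and the goblet cell factor gene Spdef were not detected on any array. The duct factor gene Sox9 had -0.22 ± 0.11 on its probe of smallest p and -0.04 ± 0.08 on its other, brighter probe. Gata6 had 0.17 ± 0.11 and, on its brighter probe, 0.01 ± 0.15. Binding partners and receptors of the members gave 0 of 12 (3 at the unadjusted level, median 0.02). Of these 3, 2 were higher and 1 lower in CD133+ cells, beside 9.08% and 7.53% of all tested probes. The lower was the integrin gene Itga3, with -0.22 ± 0.08. Met, a receptor tyrosine kinase, had 0.73 ± 0.17 (adjusted p = 0.0885 by limma) and Ctnnb1, whose protein binds the MUC1 tail, 0.22 ± 0.08 on its probe of smallest p and 0.00 to 0.10 on its others. Cxcr4, a receptor for TFF2, and Slc22a17, the Lcn2 receptor gene, were not detected on any array.

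Markers of gastric pit, goblet and tuft cells overlapped the members in Tff2, and 16 of their 20 probes were not detected on any array. Of the 3 tested probes, 1 detected in both groups passed, where 1.25% of all tested probes, those detected in CD133+ alone included, passed with the higher value in CD133+ cells. This was ILMN_1217517 of Dclk1, a tuft cell kinase, detected on 3 CD133+ and 2 CD133- arrays with log2 means of 5.38 and 4.88. It was higher in CD133+ cells by 0.51 ± 0.09 (adjusted p = 0.0445 by limma) and passed in 0 of 13 other settings. Its difference was 0.14 in the lowest of them and 0.54 in the highest, and leaving out any 1 of the 6 arrays ended the call (adjusted p between 0.112 and 0.126 by limma). The other Dclk1 probes, ILMN_1259689 and ILMN_2434274, were not detected on any array, nor were those of the tuft cell markers Trpm5 and Pou2f3. Zg16, a goblet granule lectin, was detected on 3 CD133+ and 0 CD133- arrays, so that it met the detection filter through CD133+ alone and its direction was set by that filter. In the main setting its signal was at least 1.2-fold higher in CD133+ cells. The log2 means were 5.18 ± 0.09 in CD133+ and 4.52 ± 0.07 in CD133- cells, which is given as a description. No p-value is given, since CD133+ detection alone brought this probe into the test. Over the 10 other settings in which Zg16 met the filter, its lowest log2 difference was 0.20, less than the main setting's bound of 0.26. The summed signal of this list was 2228 to 2372 in CD133+ and 2320 to 2387 in CD133- samples.

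The remaining marker lists held no probe that passed. Among epithelial and ductal markers (0 of 10) the adhesion gene Cdh1 had 9.91 ± 0.25 in CD133+ and 10.03 ± 0.08 in CD133- cells on ILMN_2628629, with a difference of -0.12 ± 0.13. Its probe ILMN_1227162 was detected on CD133+ arrays alone and, in the main setting, was at least 1.21-fold higher there. That probe did not pass, and it met the detection filter through those arrays alone, which set its direction. Krt18 had -0.21 ± 0.08. Acinar and endocrine markers gave 0 of 1, with -0.09 ± 0.14 for Cela1, and fibroblast and endothelial markers 0 of 2, with -0.27 ± 0.13 for Col1a1 and 0.06 ± 0.17 for Kdr.

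Across the 6 arrays, the genes whose pattern was most like that of Lcn2 were Jade1 and Wipi1, with Pearson r of 0.996 and 0.995. Probes of the member's own gene were left out of the comparison. Of the 12500 compared probes, 45 had an r over 0.95 with Lcn2. For the Muc1 probes it was 13 to 51 of 12497. For Muc1 ILMN_1250138 the nearest were Ccdc59 and Tgm2, both at 0.995. The nearest for ILMN_2928489 were Tirap (0.991) and Sfxn2 (0.987), for ILMN_1231229 Klhl24 (0.999) and Zkscan3 (0.993), and for ILMN_1259202 Daxx (0.988) and Elavl1 (0.977), so that no gene was nearest to more than 1 Muc1 probe. The points share their arrays and their normalisation, and the values are descriptions.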

How the data were processed

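The 6 arrays were grouped by their titles, and an unnumbered title was read as replicate 1. Per the file headers, 1 deposited table gave the mean bead intensity (linear scale), its standard error, the bead count and the detection p-value of every probe. Judged by their values, these intensities had no background subtraction or scaling. The other deposited table gave the authors' processed intensities, made by a method not given in the sources used here. They were read as linear from their values (array medians of 118.7 to 120.5, against 115.3 to 123.0 for the unprocessed signal), and their rank correlation with that signal was 1 on every array, so they are not centred by gene. From the unprocessed signals, neqc of limma 3.58.1 (R 4.3.3) corrected the background by a normal-exponential fit, inferring the negative controls from detection p, with an offset of 16, then took log2 and quantile-normalised. The offset compresses differences of dim probes, and background left uncorrected does so too. The difference of the dim Tff2 probe was -0.37 here and -0.12 on uncorrected signals. Probes detected (p under 0.05) on at least 3 arrays were compared with lmFit and eBayes, two-sided, with Benjamini-Hochberg adjustment across every tested probe and a threshold of 0.05. The procedure was tested on simulated data.

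Symbols are those of the platform annotation, which may be outdated: 34885 of 45281 probes had 1 symbol, 18 several, and 10378 have no entry and no name here. By gene identifier, 34807 were found in RefSeq and 0 had changed. Named are all members with every probe, genes of each list that passed (up to 4) or otherwise the 2 of smallest p, and for each member probe detected on all arrays the 2 most correlated genes. Agr2, Spdef, Nfkbiz, Itga3, Cxcr4, Slc22a17 and markers given as not detected were named outside this rule. Members and lists were chosen with earlier results of these data known. A probe above background in 1 group has a bound for its fold: the mean of that group minus the mean, over the arrays of the dim group, of the dim probe's log2 value or the lowest detected value of the array, whichever was higher. The bound holds on the log2 scale of the main setting alone. Alternatives covered background, scaling, filter, variance model, a block for the replicate number and leaving out each array. Precision is limited by the number of arrays (median standard error of a log2 difference 0.11).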

Additional observations from a re-analysis of the deposited data

How the results depend on the processing

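All alternatives were planned. The count of member probes that passed (0 of 6) became 1 without background correction (Lcn2, 0.33), 1 with a normal-exponential correction that used no negative controls (Lcn2, 0.40) and 1 with a variance trend and robust estimation (Lcn2, 0.51). It was 2 with the authors' intensities, Lcn2 (0.34) and Muc1 ILMN_1250138 (0.22, adjusted p = 0.0461 by limma), and 0 with a median shift, no filter, detection p under 0.01 on all arrays, the replicate block and each array left out. Over all settings the lowest and highest adjusted p were 0.00326 and 0.297 for Lcn2 and 0.0461 and 0.416 for that Muc1 probe. The background count of 264 probes (216 higher, 48 lower) became 1157 (836 and 321) with the authors' intensities, 734 (546 and 188) when no negative controls were used, 1110 (748 and 362) on uncorrected signals and 1096 (733 and 363) with the variance trend. It was 555 with detection p under 0.01 on all arrays, 113 without a filter (45281 tests) and 37 (25 and 12) with a median shift, and 7 to 14 with 1 array left out. Fewer arrays or other probe numbers aside, the cause was not tested. The median shift moved the median of all tested probes to -0.13, relative to which Lcn2 (0.39) and Muc1 ILMN_1250138 (0.18) stayed above. The replicate block left 6 probes (3 and 3), none of them a member. The labels give same-numbered samples only a number in common. Their deviations from the group means correlated at 0.0202, 0.00176 and 0.0183, which cannot show whether they were prepared together. Of the 6 tested member probes 5 kept their sign in every setting in which they were tested, and Muc1 ILMN_1259202 was -0.09 without CD133- replicate 3. Detected member probes numbered 6, and 5 at a detection p under 0.01. Muc4, Muc20, Tff3 and Muc13 lay too near background for a difference to be resolved.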
